A study of Mus musculus with 24 samples.

Results

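The genes described here control the G1 phase of the cell cycle. They are the D-type cyclins Ccnd1, Ccnd2 and Ccnd3, the kinases Cdk4 and Cdk6, the Cdk inhibitors Cdkn1a, Cdkn1b, Cdkn2c and Cdkn2d, and Rb1. These 10 of the 17301 genes in the table were chosen by name, from the Ensembl identifier without its version, and all 10 were present. Values are RPKM (reads relative to the length of the gene and the size of the library) or log2 RPKM. A fold change is the difference of group means in log2 RPKM.

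Myeloid cells were sorted from the colon lamina propria (LP) of mice labelled C57/BL and from the colon tumours of mice labelled APC/Min, in which an inherited Apc mutation gives rise to adenomas. Surface markers defined CD11b+ macrophages with high MHCII (MHCIIhi) or low MHCII (MHCIIlow), Ly6C high monocytes and neutrophils. There were 3 libraries a group and 8 groups, so 24 libraries, each named by a donor number that stands for pooled tissue of several mice. The mice with tumours were adults of both sexes a few weeks after dextran sodium sulphate in the drinking water. The methods describe this treatment for the C57BL/6J controls too, at another concentration, whereas the labels call the LP healthy, so the treatment of the LP donors is not settled. Apc genotype, tissue and tumour change together and cannot be told apart.

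D-type cyclins are made in response to growth factors and activate Cdk4 and Cdk6, and the complexes phosphorylate the retinoblastoma protein Rb1 and its relatives. Unphosphorylated Rb1 holds back E2F transcription factors, which drive the genes of DNA replication. Members of the INK4 family, among them Cdkn2c (p18) and Cdkn2d (p19), bind Cdk4 and Cdk6. The Cip/Kip proteins Cdkn1a (p21) and Cdkn1b (p27) inhibit Cdk2 complexes and also bind cyclin D complexes. Monocytes and neutrophils in tissue are largely non-dividing cells, whereas resident macrophages can divide locally.

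The libraries held 12838061 to 41718078 reads on genes. The library size behind the deposited RPKM was 0.466 to 0.483 times the reads on genes in tumour neutrophils and 0.63 to 0.682 times in LP neutrophils. In the other groups it was 0.981 to 1.51 times the reads. Differences between neutrophils and other cells, and between tumour and LP neutrophils, therefore depend on this scaling. Summed over 12 macrophage markers, the RPKM was 7740 to 27900 in macrophage libraries, at most 1470 in monocytes and at most 388 in neutrophils. Summed over 10 neutrophil markers it was 12300 to 19100 in LP neutrophils, 24500 to 36500 in tumour neutrophils and at most 578 elsewhere. Summed over 8 monocyte markers it was 1050 to 3710 in monocytes, 664 to 1300 in neutrophils and 19.2 to 455 in macrophages. Fewer cells of a type and less RNA per cell cannot be told apart in such bulk libraries. The p-values measure only the spread between pools, of which there were 3 a group. Unless stated, this spread and the standard error (SE) of a gene were shared over all 8 groups, not taken from the groups compared alone.

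Coordinates are on GRCm38, from GENCODE M21. On the plus strand lay Ccnd3 (chr17:47505051-47599691), Cdkn1a (chr17:29090976-29100727), Cdk4 (chr10:127063534-127067920), Cdk6 (chr5:3341485-3531008) and Cdkn1b (chr6:134920401-134925513). On the minus strand lay Ccnd1 (chr7:144929931-144939925), Ccnd2 (chr6:127125162-127152193), Cdkn2c (chr4:109660876-109667189), Cdkn2d (chr9:21288410-21291407) and Rb1 (chr14:73183673-73325822). All 10 are protein-coding. The library kit does not mark strand, so reads in exons shared with a gene on the opposite strand could not be assigned to either. In M21 such exons made up 23.4% of the exon bases of Ccnd1, 19.7% of those of Cdk4 and 14.9% of those of Rb1. They made up at most 7.9% of those of Ccnd2, Ccnd3, Cdk6 and Cdkn1a, and none of those of Cdkn1b, Cdkn2c and Cdkn2d. The release used to count reads is not given. Its length for Ccnd1 was 3835 bases against 4709 in M21, so the overlaps in counting may differ.

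Promoters of 7 members were held in the RefSeq table for GRCm38.p6, as 10 windows of 250 bases before and 50 bases after a transcription start. Those of Ccnd3 and Cdkn2d are printed because these genes followed each other through the 24 libraries. A window of Cdkn1a is printed because it holds a match to the p53 consensus. Capitals in the first 3 windows mark the GC box GGGCGG and the CCAAT box CCAAT, searched on both strands. Capitals in the window of Cdkn1a mark that match, which need not be the bases that p53 binds. Each is written 5′ to 3′ on the strand of the gene.
Cdkn2d (chr9:21291160-21291459, minus strand): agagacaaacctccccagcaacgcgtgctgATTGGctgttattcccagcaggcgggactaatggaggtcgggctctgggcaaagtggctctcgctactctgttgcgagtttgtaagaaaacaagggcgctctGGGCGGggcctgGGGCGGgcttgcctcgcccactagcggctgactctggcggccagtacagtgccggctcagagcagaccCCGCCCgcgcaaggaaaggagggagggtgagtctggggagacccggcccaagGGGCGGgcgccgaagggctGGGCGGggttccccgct
Ccnd3, upstream start (chr17:47504801-47505100, plus strand): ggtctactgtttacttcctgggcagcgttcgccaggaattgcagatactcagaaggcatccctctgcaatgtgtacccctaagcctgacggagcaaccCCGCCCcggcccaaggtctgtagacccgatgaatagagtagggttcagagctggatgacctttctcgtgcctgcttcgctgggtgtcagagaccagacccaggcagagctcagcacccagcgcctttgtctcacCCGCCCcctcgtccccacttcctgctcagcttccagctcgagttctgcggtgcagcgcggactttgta
Ccnd3, downstream start (chr17:47593217-47593516, plus strand): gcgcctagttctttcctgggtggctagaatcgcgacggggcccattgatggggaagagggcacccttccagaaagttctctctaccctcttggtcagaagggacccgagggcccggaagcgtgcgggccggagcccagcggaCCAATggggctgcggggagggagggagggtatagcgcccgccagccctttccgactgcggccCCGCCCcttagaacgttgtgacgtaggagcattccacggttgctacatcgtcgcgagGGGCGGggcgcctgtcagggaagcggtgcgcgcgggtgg
Cdkn1a, upstream start (chr17:29090729-29091028, plus strand): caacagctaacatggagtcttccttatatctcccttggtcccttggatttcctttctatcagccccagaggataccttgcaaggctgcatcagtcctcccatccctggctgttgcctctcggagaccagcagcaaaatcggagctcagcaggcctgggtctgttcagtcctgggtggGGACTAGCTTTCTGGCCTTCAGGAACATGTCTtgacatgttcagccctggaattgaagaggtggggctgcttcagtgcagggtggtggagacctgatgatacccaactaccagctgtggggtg

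The Cdkn2d window held 5 GC boxes and 1 CCAAT box, each Ccnd3 window held 2 GC boxes, and the downstream one also held 1 CCAAT box. A GC box was present in 35.9% and a CCAAT box in 37.4% of all 32544 promoter windows of this length. A p53 match was 2 exact half-sites of the p53 consensus at most 13 bases apart. Half-sites with a mismatch were not searched for, so letters beside the capitals may belong to an element too. The match begins 73 bases before the upstream start of Cdkn1a and spans 32 bases. Such a match was present in 24 of the 32544 windows, 0.0737%. The E2F motif TTTNGCGC, present in 1.4% of windows, was in 0 of the 10 windows of the members. These matches describe the letters and say nothing of binding.

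In tumours, Rb1 rose in all 4 populations, Cdk6 fell in both macrophage subsets, and Ccnd3 and Cdkn2d rose in monocytes and neutrophils. Cdkn1b rose in MHCIIhi macrophages, Cdkn2d fell in MHCIIlow macrophages and Cdk4 fell in neutrophils. Of the 9 members with a mean of at least 1 RPKM in some group, which were tested with limma, 3 passed an adjusted p of 0.05 in MHCIIhi macrophages, where 19.5% of all 12878 genes tested passed. In MHCIIlow macrophages 3 members passed, against 23.3% of all genes. In monocytes 3 passed, against 9.29%, and in neutrophils 4 passed, against 32.2%. The share of all genes that rose in all 4 populations, as Rb1 did, was not counted. The median log2 fold change of the members was 0.16, 0.10, 0.68 and 0.21 in these comparisons, and that of all genes was 0, 0.06, 0 and -0.12.

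**Figure D1:**
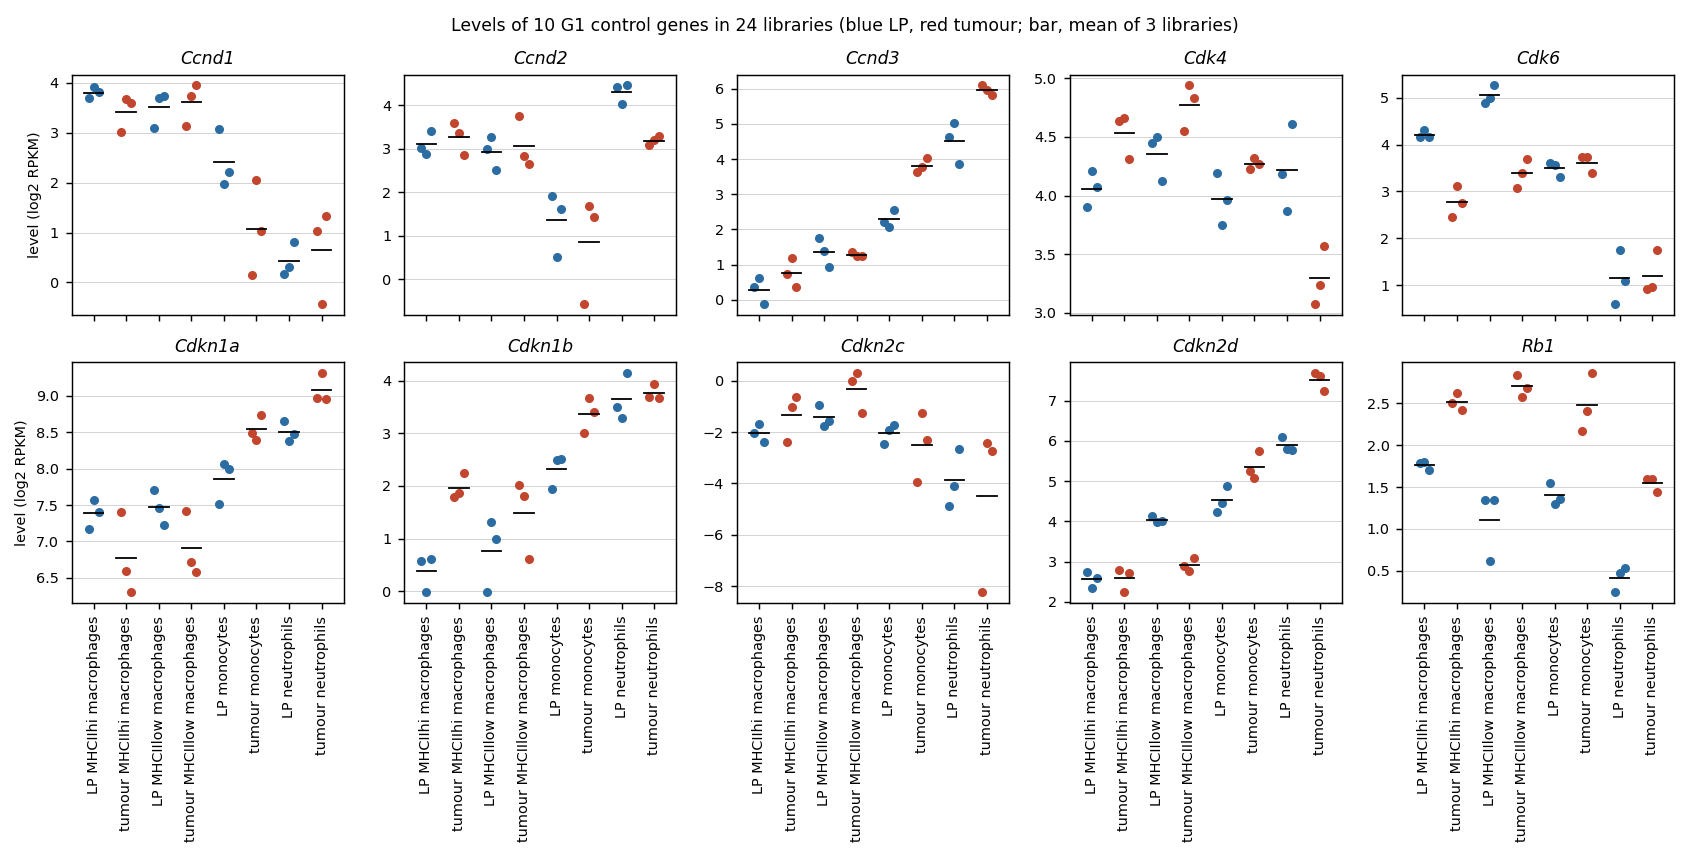
Level in log2 RPKM (y axis) of each member in the 24 libraries, by group (x axis), with LP in blue, tumour in red and a bar at the mean of 3 libraries. Ccnd3 and Cdkn2d step up from macrophages to monocytes to neutrophils, and Rb1 is higher in the tumour libraries of every population.

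**Figure D2:**
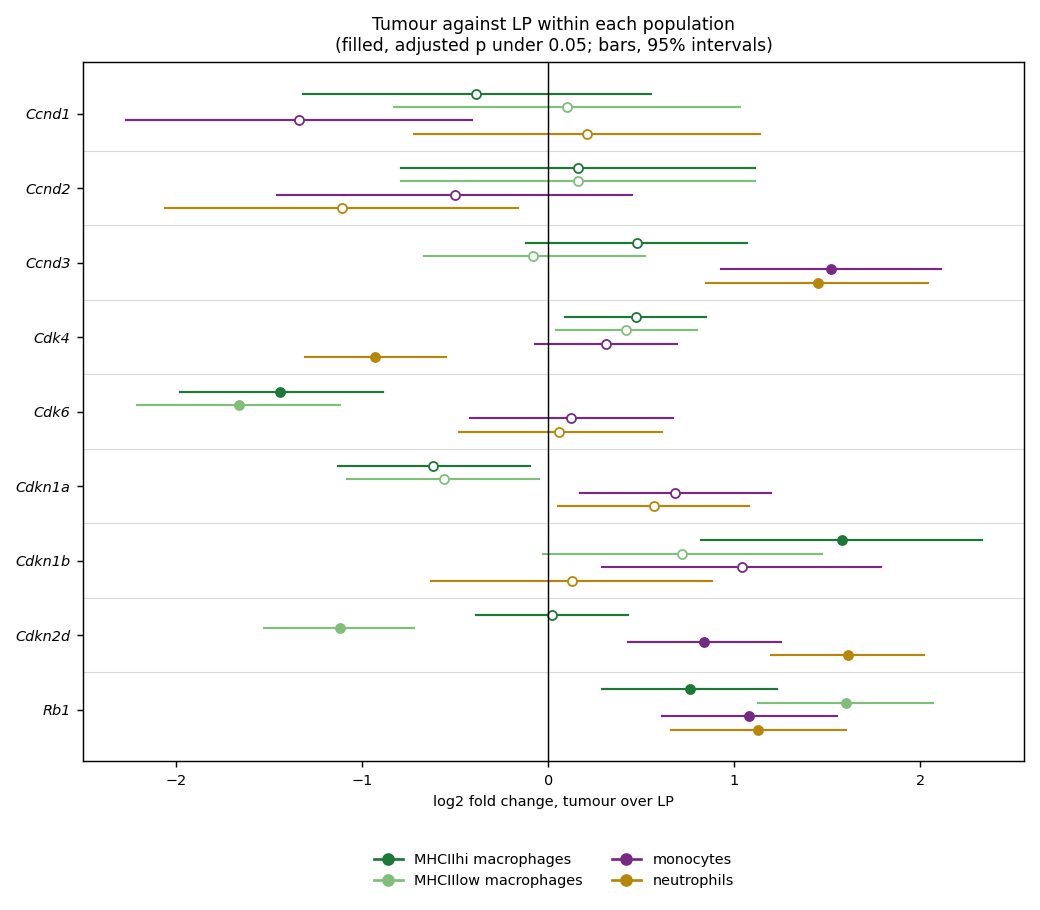
Log2 fold change of tumour over LP (x axis) with its 95% interval for the 9 members tested, by population. Filled points passed an adjusted p of 0.05. Rb1 is the member with 4 filled points, from 0.76 to 1.60.

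Ccnd1, the D cyclin best known as a target of growth factor signalling, was at similar levels in all macrophage groups. In LP it measured 12.9, 15.1 and 14.1 RPKM in MHCIIhi and 8.58, 13 and 13.3 RPKM in MHCIIlow macrophages, and in tumours 8.03, 12.8 and 12 RPKM and 8.82, 13.4 and 15.5 RPKM. Monocytes held 8.39, 3.92 and 4.65 RPKM in LP and 1.11, 4.14 and 2.05 RPKM in tumours. Neutrophils held 0.739 to 2.52 RPKM over both tissues. The groups formed a chain in which each overlapped its neighbour in order of mean level. Tumour MHCIIhi macrophages lay just under LP MHCIIhi macrophages, a difference that did not pass the test (log2 -0.39 ± 0.45 SE, limma adjusted p = 0.625).

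Against monocytes of the same tissue, the mean of both macrophage subsets was 2.37-fold higher for Ccnd1 in LP (log2 1.24 ± 0.39 SE, limma adjusted p = 0.0194) and 5.43-fold higher in tumours (log2 2.44 ± 0.39, adjusted p = 3.87e-05). The call in LP was lost without LP monocyte donor IV (1.02, adjusted p = 0.112) or donor V (1.14, adjusted p = 0.0837). In monocytes, Ccnd1 did not pass the test between tumour and LP (log2 -1.34 ± 0.45, adjusted p = 0.0656). That difference passed without tumour monocyte donor II, the tumour library with the highest value (-1.83, adjusted p = 0.0175). A share of 23.4% of the exon bases of Ccnd1 lies under LTO1 on the opposite strand, whose log2 fold change in tumour monocytes was -0.27 (adjusted p = 0.682).

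Ccnd2, the D cyclin prominent in haematopoietic cells, was highest in LP neutrophils, at 21.4, 16.3 and 21.8 RPKM. Tumour neutrophils held 8.45, 9.15 and 9.72 RPKM, and every one lay under the LP libraries. Macrophages held 5.66 to 13.5 RPKM over both tissues, and monocytes 1.42 to 3.77 RPKM in LP and 0.668 to 3.23 RPKM in tumours. The lower level in tumour neutrophils did not pass the test (log2 -1.11 ± 0.46, limma adjusted p = 0.0682). It passed under 4 of 15 alternatives, among them neutrophil libraries alone (adjusted p = 0.00848). Over the 15 the adjusted p reached 0.211. The summed RPKM of 7 B and plasma cell markers in neutrophils was 372 to 1330 in LP against 14.3 to 35.3 in tumours, and its part in the difference was not tested.

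Ccnd2 was lowest in monocytes. Macrophages exceeded monocytes 3.16-fold in LP (log2 1.66 ± 0.39, limma adjusted p = 0.00321) and 5.01-fold in tumours (log2 2.32 ± 0.39, adjusted p = 8.62e-05). Neutrophils exceeded monocytes 7.72-fold in LP (log2 2.95 ± 0.46, adjusted p = 1.82e-05) and 5.06-fold in tumours (log2 2.34 ± 0.46, adjusted p = 0.000195).

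Ccnd3, the D cyclin with roles in lymphoid and granulocyte development, had the widest range of the D cyclins. It measured 1.28, 1.53 and 0.913 RPKM in LP MHCIIhi macrophages, and 1.65, 2.3 and 1.28 RPKM in their tumour counterparts. MHCIIlow macrophages held 3.37, 2.63 and 1.89 RPKM in LP and 2.54, 2.36 and 2.38 RPKM in tumours. The macrophage groups of the 2 tissues overlapped in both subsets.

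Monocytes held 4.67, 4.19 and 5.90 RPKM of Ccnd3 in LP and 12.3, 13.8 and 16.2 RPKM in tumours. Neutrophils held 24.7, 32.8 and 14.5 RPKM in LP and 68.0, 62.6 and 56.1 RPKM in tumours. Tumour and LP libraries did not overlap in either cell type. The rise was 2.87-fold in monocytes (log2 1.52 ± 0.28, limma adjusted p = 0.00167) and 2.73-fold in neutrophils (log2 1.45 ± 0.28, adjusted p = 0.00064). The difference between these tumour effects was -0.07 on the log2 scale, with a 95% interval from -0.91 to 0.77 (adjusted p = 0.943). With the summed reads on genes as library sizes, the rise was log2 1.36 in monocytes (adjusted p = 0.00461) and 0.98 in neutrophils (adjusted p = 0.0105). Summed epithelial markers were 27.3 to 227 RPKM in LP and 146 to 391 RPKM in tumour monocytes. In neutrophils they were 24.3 to 90.8 RPKM and 208 to 397 RPKM, with 3 of 12 markers past the threshold in each cell type. Summed monocyte markers in monocytes were 1050 to 1510 RPKM in LP and 2950 to 3710 RPKM in tumours. Taken singly, 0 of 8 passed (median log2 0.12). Summed neutrophil markers in neutrophils were 12300 to 19100 RPKM in LP and 24500 to 36500 RPKM in tumours. Taken singly, 0 of 10 passed (median log2 1). The part of all these transcripts was not tested.

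In LP, Ccnd3 was 2.11-fold higher in MHCIIlow than in MHCIIhi macrophages (log2 1.07 ± 0.28, limma adjusted p = 0.0236). The call was lost without LP MHCIIhi donor III (1.11, adjusted p = 0.0613) or V (0.87, adjusted p = 0.117), without LP MHCIIlow donor II (0.88, adjusted p = 0.122) or III (1.05, adjusted p = 0.0536), and with these 6 libraries alone (adjusted p = 0.123). The summed monocyte markers were 455, 132 and 146 RPKM in LP MHCIIlow macrophages of donors II, III and IV and 80.7 to 88.3 RPKM in LP MHCIIhi macrophages. Taken singly, 1 of the 8 markers was higher and 2 were lower in MHCIIlow macrophages, with a median log2 fold change of -0.88. The part of these transcripts in the difference was not tested.

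Shares of the 3 D cyclins within a library do not depend on its library size, but their height rests on the gene lengths in the deposited values. These were 3835 bases for Ccnd1 and 5701 for Ccnd2, where the M21 exons cover 4709 and 9409 bases, and 8775 bases in both for Ccnd3. Ccnd3 made up 5.23% ± 1.48 (SD, n = 3) of the summed D cyclin RPKM in LP MHCIIhi macrophages and 7.65% ± 1.42 in their tumour counterparts. In MHCIIlow macrophages it was 12.2% ± 4.25 in LP and 10.1% ± 0.231 in tumours. In monocytes it was 38.3% ± 9.22 in LP and 76.7% ± 11.1 in tumours, and in neutrophils 51.9% ± 13.6 and 85% ± 2.54. The ranges of LP and tumour did not overlap in monocytes (27.7% to 44.0% and 65.2% to 87.4%) or neutrophils (38.1% to 65.2% and 82.1% to 86.6%). Ccnd1 made up 35.5% to 64.2% in macrophages of both tissues and 1.02% to 4.62% in neutrophils, and the remainder was Ccnd2.

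**Figure D3:**
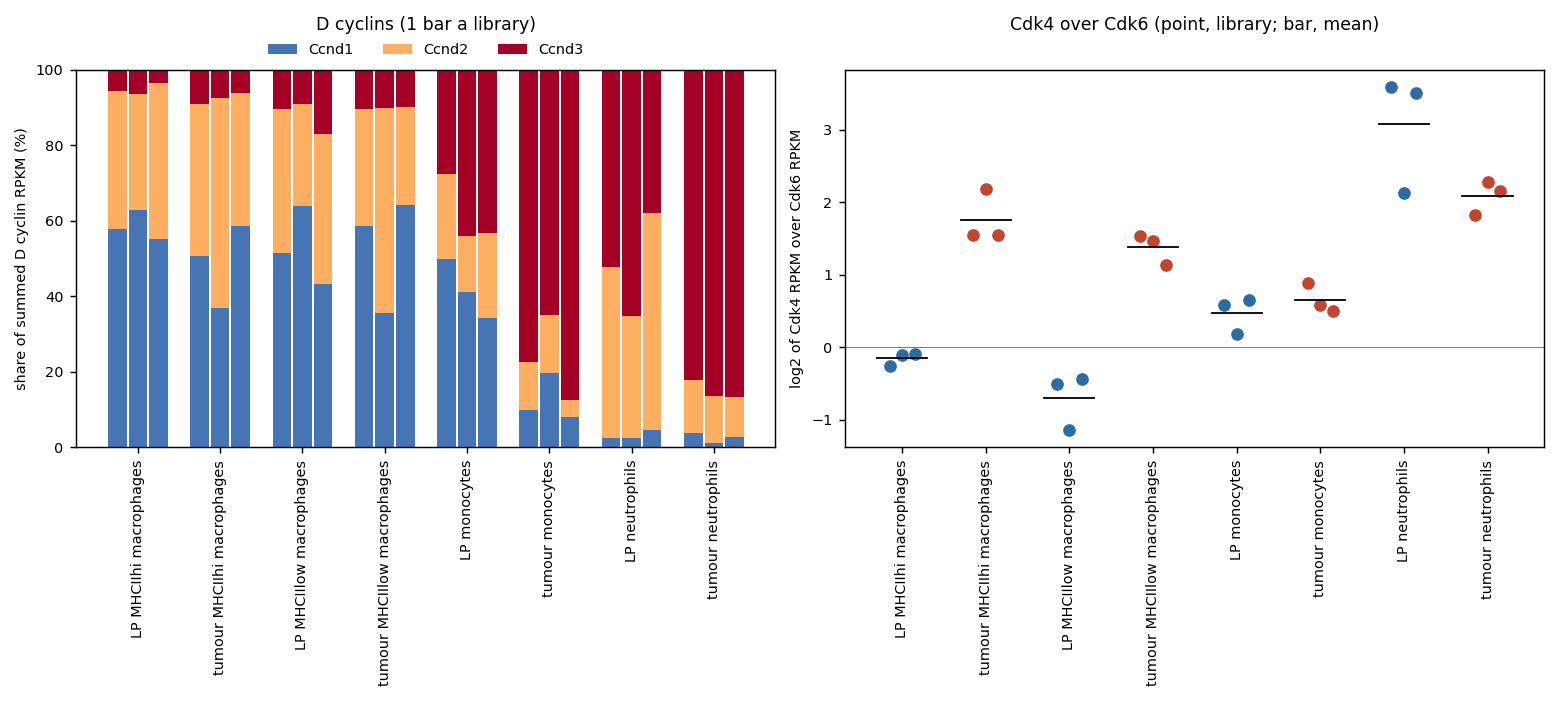
Left, share of each D cyclin in the summed D cyclin RPKM of each library (y axis, %), 3 bars a group. Right, log2 of Cdk4 over Cdk6 (y axis) with a point per library and a bar at the group mean. The Ccnd3 share reaches 82.1% to 86.6% in tumour neutrophils, and Cdk4 over Cdk6 is below 0 in LP macrophages and 1.14 to 2.18 in tumour macrophages.

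Cdk6, the partner of D cyclins prominent in blood cells, was highest in LP macrophages. MHCIIhi macrophages held 17.9, 19.9 and 17.9 RPKM in LP and 5.49, 8.62 and 6.77 RPKM in tumours. MHCIIlow macrophages held 29.7, 32.1 and 38.4 RPKM in LP and 8.46, 10.6 and 12.9 RPKM in tumours. Every tumour macrophage library lay below every LP macrophage library.

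The fall was 2.71-fold in MHCIIhi (log2 -1.44 ± 0.26, limma adjusted p = 0.000504) and 3.17-fold in MHCIIlow macrophages (log2 -1.66 ± 0.26, adjusted p = 8.8e-05). Both calls held under each of the 15 alternatives run. In these comparisons 5 of 6 fibroblast markers fell in both subsets, and of 8 monocyte markers 6 fell in MHCIIhi and 2 in MHCIIlow macrophages. Summed T and NK cell markers were 221 to 234 RPKM in LP and 67.8 to 72.4 RPKM in tumour MHCIIhi macrophages, and 49.8 to 105 RPKM and 45.3 to 54.2 RPKM in MHCIIlow macrophages. Of the 4 of them tested, 1 fell in MHCIIhi macrophages (median log2 -0.63) and 0 passed in MHCIIlow macrophages (median log2 0.79). The part of these transcripts in the fall was not tested. Monocytes held 9.89 to 12.1 RPKM in LP and 10.5 to 13.3 RPKM in tumours, and the ranges overlapped (log2 0.12, 95% interval -0.42 to 0.67, adjusted p = 0.846). In neutrophils the values were 1.5 to 3.33 RPKM and 1.89 to 3.35 RPKM (log2 0.06, 95% interval -0.48 to 0.61, adjusted p = 0.886). Within LP, MHCIIlow macrophages stood above MHCIIhi macrophages without overlap (log2 0.84 ± 0.26, adjusted p = 0.0535). This difference passed under 7 of 15 alternatives, among them the donor number as a block (adjusted p = 0.0464). Over the 15 the adjusted p lay between 0.00114 and 0.186. In LP, macrophages exceeded monocytes 2.21-fold for Cdk6 (log2 1.14 ± 0.23, adjusted p = 0.00067), and in tumours the difference was -0.53 ± 0.23 (adjusted p = 0.0696). Neutrophils were 5.09-fold below monocytes in LP (log2 -2.35 ± 0.26, adjusted p = 2.84e-07) and 5.31-fold below in tumours (log2 -2.41 ± 0.26, adjusted p = 1.64e-07).

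Cdk4, the kinase that shares its cyclins and targets with Cdk6, varied less between groups. LP macrophages held 15 to 22.6 RPKM and tumour macrophages 19.8 to 30.7 RPKM. Within each MHCII subset the tumour libraries lay above the LP libraries, but the differences did not pass the test (log2 0.47 ± 0.18, limma adjusted p = 0.0757 in MHCIIhi and 0.42 ± 0.18, adjusted p = 0.11 in MHCIIlow). In MHCIIhi macrophages the difference passed under 3 of 15 alternatives. Tspan31, on the opposite strand of Cdk4, had log2 fold changes of 0.44 (adjusted p = 0.115) in MHCIIhi and 0.8 (adjusted p = 0.0035) in MHCIIlow macrophages. Its part here was not tested. Monocytes held 13.5 to 18.2 RPKM in LP and 18.8 to 20.0 RPKM in tumours (log2 0.31 ± 0.18, adjusted p = 0.343).

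Neutrophils held 18.1, 14.6 and 24.4 RPKM of Cdk4 in LP and 8.42, 9.45 and 11.8 RPKM in tumours. The tumour libraries all lay below the LP libraries. The fall was 1.90-fold (log2 -0.93 ± 0.18, limma adjusted p = 0.000634), and with neutrophil libraries alone the adjusted p was 0.0507. With library sizes as summed reads, which moved the median of all genes in this comparison from -0.12 to -0.59, the fall was -1.40. The tumour effect on Cdk4 in neutrophils was 1.24 ± 0.26 log2 units below that in monocytes (limma adjusted p = 0.00499), a test that 9.11% of all genes passed and 1 of the 9 members. Of the exon bases of Cdk4, 19.7% lie under Tspan31 on the opposite strand, which also fell in tumour neutrophils (log2 -0.73, adjusted p = 0.00547) and whose tumour effects differed by -1.21 in the same test (adjusted p = 0.0071). Its part in the values of Cdk4 was not tested. Summed B and plasma cell markers in neutrophils were 372 to 1330 RPKM in LP and 14.3 to 35.3 RPKM in tumours. Their part in the fall of Cdk4 was not tested either.

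The ratio of Cdk4 to Cdk6 within a library does not depend on its library size. Its log2 was -0.15 ± 0.10 (SD, n = 3) in LP MHCIIhi macrophages and 1.76 ± 0.36 in their tumour counterparts. In MHCIIlow macrophages it was -0.69 ± 0.39 in LP and 1.38 ± 0.21 in tumours. All 6 LP macrophage libraries were below 0 and all 6 tumour macrophage libraries were above 1. In monocytes it was 0.47 ± 0.26 in LP and 0.66 ± 0.20 in tumours, and in neutrophils 3.08 ± 0.82 and 2.09 ± 0.23, with overlapping ranges in both. The level of Cdk6 against that of Cdk4 rests on the gene lengths in the deposited values, which were 3735 bases for Cdk6 and 3249 bases for Cdk4. The M21 exons of Cdk6 cover 13989 bases, so the height of the ratio depends on the annotation and its differences between groups do so less directly.

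Cdkn1a, the p53-responsive inhibitor p21, was the most abundant member in every library. MHCIIhi macrophages held 144, 190 and 171 RPKM in LP and 170, 96.4 and 79.0 RPKM in tumours. MHCIIlow macrophages held 209, 176 and 150 RPKM in LP and 171, 105 and 95.9 RPKM in tumours. In both subsets tumour donor I lay within the LP range and the other tumour libraries lay below it.

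Neither macrophage difference in Cdkn1a passed the test (log2 -0.62 ± 0.25, limma adjusted p = 0.0887 in MHCIIhi and -0.56 ± 0.25, adjusted p = 0.111 in MHCIIlow). Over 15 alternatives each, the value lay between -0.94 and -0.38 in MHCIIhi and between -0.82 and -0.4 in MHCIIlow macrophages. It passed under 2 of them in MHCIIhi and 1 in MHCIIlow macrophages. Without tumour donor I both passed (-0.94, adjusted p = 0.00744 and -0.82, adjusted p = 0.0249). Summed epithelial markers were 81.3 and 288 RPKM in these libraries of donor I and 11.2 to 39.6 RPKM in the other tumour macrophage libraries, and their part was not tested. Monocytes held 183, 268 and 254 RPKM in LP and 360, 335 and 428 RPKM in tumours, and neutrophils 405, 334 and 358 RPKM and 502, 634 and 496 RPKM. Tumour libraries lay above LP libraries in both, and neither difference passed (log2 0.68 ± 0.25, adjusted p = 0.0922 and 0.57 ± 0.25, adjusted p = 0.0845). With library sizes as summed reads these differences were 0.52 (adjusted p = 0.138) and 0.1 (adjusted p = 0.746). In tumours, macrophages were 3.26-fold below monocytes for Cdkn1a (log2 -1.70 ± 0.21, adjusted p = 2.23e-06), and in LP the difference was -0.43 ± 0.21 (adjusted p = 0.141).

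Cdkn1b, the inhibitor p27 associated with quiescence, measured 1.48, 0.994 and 1.53 RPKM in LP MHCIIhi macrophages and 3.48, 3.64 and 4.72 RPKM in their tumour counterparts. The groups did not overlap, and the rise was 2.98-fold (log2 1.58 ± 0.36, limma adjusted p = 0.00362). MHCIIlow macrophages held 0.987, 2.49 and 1.99 RPKM in LP and 4.02, 3.51 and 1.54 RPKM in tumours. These overlapped through tumour donor VII and did not pass the test (log2 0.72 ± 0.36, adjusted p = 0.167). Without that library the difference passed (1.15, adjusted p = 0.0252), the 1 of 15 alternatives in which it did. Without LP MHCIIlow donor II it was 0.33 (adjusted p = 0.613). The difference between the tumour effects of the subsets was -0.86 with a 95% interval from -1.92 to 0.20 (adjusted p = 0.542).

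Monocytes held 3.86, 5.65 and 5.69 RPKM of Cdkn1b in LP and 8.01, 12.8 and 10.6 RPKM in tumours, without overlap (log2 1.04 ± 0.36, limma adjusted p = 0.0775). Neutrophils held 9.84 to 17.6 RPKM in LP and 12.8 to 15.3 RPKM in tumours, and the tumour range lay inside the LP range. Macrophages were below monocytes 3.34-fold in LP (log2 -1.74 ± 0.31, adjusted p = 0.000257) and 3.11-fold in tumours (log2 -1.64 ± 0.31, adjusted p = 0.000295).

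Cdkn2d, the INK4 inhibitor p19, ranged from 4.74 to 206 RPKM over the libraries. MHCIIhi macrophages held 6.75, 5.11 and 6.0 RPKM in LP and 6.89, 4.74 and 6.62 RPKM in tumours. MHCIIlow macrophages held 17.6, 15.7 and 16.1 RPKM in LP and 7.41, 6.88 and 8.44 RPKM in tumours. The LP MHCIIlow libraries thus stood apart from the other 9 macrophage libraries, none of which exceeded 8.44 RPKM.

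Cdkn2d fell 2.18-fold in tumour MHCIIlow macrophages (log2 -1.12 ± 0.20, limma adjusted p = 0.000261), and in MHCIIhi macrophages the difference was 0.02 with a 95% interval from -0.39 to 0.43 (adjusted p = 0.972). In LP, MHCIIlow exceeded MHCIIhi macrophages 2.78-fold (log2 1.48 ± 0.20, adjusted p = 7.83e-05). The tumour effect was 1.15 ± 0.28 log2 units lower in MHCIIlow than in MHCIIhi macrophages (adjusted p = 0.0445), a test that 1.46% of all genes and 1 of the 9 members passed. That call was lost, at an adjusted p of 0.0581 to 0.127, without any 1 of 9 of the 12 macrophage libraries, and kept without LP MHCIIlow donor III, tumour MHCIIhi donor V or tumour MHCIIlow donor VII. Summed monocyte markers were 132 to 455 RPKM in LP MHCIIlow and 20.3 to 28.9 RPKM in tumour MHCIIlow macrophages. Their part in the fall was not tested. Without donor II, the library with the sum of 455 RPKM, the fall in MHCIIlow macrophages was -1.08 (adjusted p = 0.00192) and the difference between the subsets was -1.10 (adjusted p = 0.0911).

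Monocytes held 18.8, 22 and 29.4 RPKM of Cdkn2d in LP and 38.2, 33.9 and 54 RPKM in tumours. Neutrophils held 68.8, 56.2 and 55.0 RPKM in LP and 206, 196 and 151 RPKM in tumours. No tumour library of either cell type fell within the LP range. The rise was 1.79-fold in monocytes (log2 0.84 ± 0.20, limma adjusted p = 0.00887) and 3.06-fold in neutrophils (log2 1.61 ± 0.20, adjusted p = 4.73e-06). With library sizes as summed reads it was log2 0.68 in monocytes (adjusted p = 0.0362) and 1.14 in neutrophils (adjusted p = 0.000156). In monocytes the call was lost without LP donor III (0.70, adjusted p = 0.058), without tumour donor V (0.65, adjusted p = 0.0605) and with monocyte libraries alone (adjusted p = 0.0998). Summed neutrophil markers were 133 to 578 RPKM in LP monocytes and 162 to 304 RPKM in tumour monocytes, which overlapped. In neutrophils these markers summed to 12300 to 19100 RPKM in LP and 24500 to 36500 RPKM in tumours. Monocyte markers in monocytes summed to 1050 to 1510 RPKM in LP and 2950 to 3710 RPKM in tumours. Their part in the rise of Cdkn2d was not tested.

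The 2 windows printed for Ccnd3 and the 1 for Cdkn2d belong to genes with a Pearson correlation of 0.963 in log2 RPKM over the 24 libraries. This is a description, since the libraries share cell types and library sizes. Cdkn2d was the second most like gene to Ccnd3 among all genes tested, after Flot1 (0.970), and the genes most like Cdkn2d were Rasgrp2 (0.978) and Alox5ap (0.969). The genes most like Cdkn1a were Nfkbia (0.969) and Ier3 (0.968), those most like Cdk6 were Anxa5 (0.946) and Git1 (0.937), and those most like Cdkn1b were Mcemp1 (0.935) and Arg2 (0.925). For Ccnd1 they were Pdlim4 (0.930) and Anpep (0.923), for Ccnd2 Mylip (0.910) and Slc40a1 (0.903), for Rb1 Eci2 (0.929) and Sh3bp1 (0.898), and for Cdk4 Mlh3 (0.873) and Tmem199 (0.867).

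Cdkn2c, the INK4 inhibitor p18, was near the floor of detection. It had 0 to 143 reads a library and group means below 1 RPKM throughout, and so was not tested with the others. Tumour MHCIIlow macrophages held the most, at 0.984, 1.22 and 0.416 RPKM (70, 143 and 31 reads), and the ranges of neighbouring groups overlapped in order of mean level. Tumour neutrophils held 0, 4 and 3 reads. When all genes were fitted, its adjusted p was 0.604 for tumour against LP in MHCIIlow macrophages (log2 1.09) and at least 0.185 in all 12 comparisons, so no difference was detectable at this depth. For Cdkn2c the most like genes were Zfp512b (0.900) and Decr2 (0.890).

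Rb1, the pocket protein held upstream of E2F, was higher in tumour libraries of every population. MHCIIhi macrophages held 3.45, 3.48 and 3.25 RPKM in LP and 5.64, 6.21 and 5.37 RPKM in tumours. MHCIIlow macrophages held 2.54, 1.54 and 2.54 RPKM in LP and 7.18, 5.98 and 6.45 RPKM in tumours. In neither subset did a tumour library fall within the LP range.

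Monocytes held 2.92, 2.47 and 2.56 RPKM of Rb1 in LP and 4.49, 5.30 and 7.27 RPKM in tumours. Neutrophils held 1.18, 1.39 and 1.44 RPKM in LP and 3.04, 3.02 and 2.71 RPKM in tumours. Here too LP and tumour libraries did not overlap. The rise was 1.69-fold in MHCIIhi macrophages (log2 0.76 ± 0.23, limma adjusted p = 0.0213), 3.03-fold in MHCIIlow macrophages (log2 1.60 ± 0.23, adjusted p = 2.58e-05), 2.11-fold in monocytes (log2 1.08 ± 0.23, adjusted p = 0.00425) and 2.19-fold in neutrophils (log2 1.13 ± 0.23, adjusted p = 0.000717).

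The call for Rb1 in MHCIIhi macrophages was lost without LP donor III (0.77, adjusted p = 0.0524), IV (0.78, adjusted p = 0.0514) or V (0.73, adjusted p = 0.0686) or tumour donor V (0.70, adjusted p = 0.0722), while the other 3 calls held under every alternative run. In neutrophils the rise was 0.66 (adjusted p = 0.0299) with library sizes as summed reads and 0.75 (adjusted p = 0.00123) on the log2(RPKM + 1) scale. Of the exon bases of Rb1, 14.9% lie under Rcbtb2 and Lpar6 on the opposite strand. Lpar6, a lysophosphatidic acid receptor gene, rose in tumour MHCIIhi (log2 1.95, adjusted p = 0.000105) and MHCIIlow macrophages (log2 1.88, adjusted p = 0.000119) and fell in tumour neutrophils (log2 -0.92, adjusted p = 0.0247), where Rb1 rose. Rcbtb2, which overlaps more of Rb1, rose in MHCIIlow macrophages (log2 1.2, adjusted p = 0.00157) and fell in neutrophils (log2 -1.44, adjusted p = 0.00023). The part of reads from these genes was not tested. In the same 4 comparisons 5 of 6 fibroblast markers tested fell, with summed levels of 7.67 to 62.6 RPKM in LP and 0.668 to 1.82 RPKM in tumour libraries, and their part was not tested. Summed erythroid markers moved the other way, with 3 or 4 of 4 higher in tumours and summed levels of 0.0375 to 0.617 RPKM in LP and 1.31 to 19 RPKM in tumours, and their part was not tested either.

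Between cell types, of the 9 members tested, 6 differed between macrophages and monocytes in LP, where 29.5% of all genes passed, and 6 in tumours, where 38.3% passed. In LP, Ccnd1, Ccnd2 and Cdk6 were higher in macrophages, and Ccnd3, Cdkn1b and Cdkn2d were lower. In tumours, Ccnd1 and Ccnd2 were higher and Ccnd3, Cdkn1a, Cdkn1b and Cdkn2d were lower. Ccnd3 was 2.76-fold lower in macrophages in LP (log2 -1.47 ± 0.25, limma adjusted p = 0.000136) and 6.89-fold lower in tumours (log2 -2.79 ± 0.25, adjusted p = 1.93e-08). Cdkn2d was 2.33-fold lower in LP (log2 -1.22 ± 0.17, adjusted p = 1.64e-05) and 6.12-fold lower in tumours (log2 -2.61 ± 0.17, adjusted p = 2.64e-10). Between MHCIIlow and MHCIIhi macrophages 2 members differed in LP, where 7.7% of all genes passed. In tumours 0 of the 9 passed by limma or by voom, and 1.13% of all genes passed. Cdk6 had there an unadjusted p under 0.05 (log2 0.62 ± 0.26, limma adjusted p = 0.342), as the 1 member to do so.

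Between neutrophils and monocytes, 8 members differed in LP, where 54.5% of all genes passed, and 6 in tumours, where 58.1% passed. Ccnd2, Ccnd3 and Cdkn2d were higher and Cdk6 and Rb1 were lower in neutrophils of both tissues. Ccnd3 was 4.67-fold higher in LP (log2 2.22 ± 0.28, limma adjusted p = 1.83e-06) and 4.44-fold higher in tumours (log2 2.15 ± 0.28, adjusted p = 2.27e-06). Cdkn2d was 2.60-fold higher in LP (log2 1.38 ± 0.20, adjusted p = 6.86e-06) and 4.43-fold higher in tumours (log2 2.15 ± 0.20, adjusted p = 1.55e-08). Rb1 was 1.98-fold lower in LP (log2 -0.99 ± 0.23, adjusted p = 0.000997) and 1.91-fold lower in tumours (log2 -0.93 ± 0.23, adjusted p = 0.00144). In LP, Ccnd1 was also lower (log2 -1.98 ± 0.45, adjusted p = 0.000893), and Cdkn1b was higher (log2 1.33 ± 0.36, adjusted p = 0.00407). In tumours, Cdk4 was also lower (log2 -0.98 ± 0.18, adjusted p = 0.000117).

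These differences depend on how neutrophil libraries are scaled. With library sizes as summed reads, the median over all genes moved from -0.24 to -1.07 in LP and from -0.36 to -1.49 in tumours. Under that scaling Ccnd3 remained 1.40 (adjusted p = 0.000324) and 1.02 (adjusted p = 0.00412) higher on the log2 scale and Cdkn2d 0.55 (adjusted p = 0.0231) and 1.01 (adjusted p = 0.000174). Cdk6 moved to -3.17 (adjusted p = 1.13e-08) and -3.54 (adjusted p = 1.42e-09), and Ccnd1 to -2.81 in LP (adjusted p = 4.07e-05) and -1.57 in tumours (adjusted p = 0.00674). Ccnd2 moved to 2.12 in LP (adjusted p = 0.000558) and 1.21 in tumours (adjusted p = 0.0273), Cdk4 in tumours to -2.12 (adjusted p = 5.27e-09) and Rb1 to -1.81 (adjusted p = 1.5e-06) and -2.07 (adjusted p = 1.78e-07). Cdkn1b was no longer past the threshold in LP (0.50, adjusted p = 0.231). Cdkn1a, 0.65 ± 0.25 higher in LP neutrophils in the deposited values (adjusted p = 0.0314), was -0.17 (adjusted p = 0.496) with summed reads and -0.55 (adjusted p = 0.0477) with quantile normalization, so its direction is not settled. Its call was also lost without LP monocyte donor III (0.48, adjusted p = 0.149) or LP neutrophil donor III (0.57, adjusted p = 0.0986) or V (0.66, adjusted p = 0.0564). In tumours the Rb1 call was lost with quantile normalization (-0.51, adjusted p = 0.0745) and with libraries centred on their median (-0.48, adjusted p = 0.0768).

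**Figure D4:**
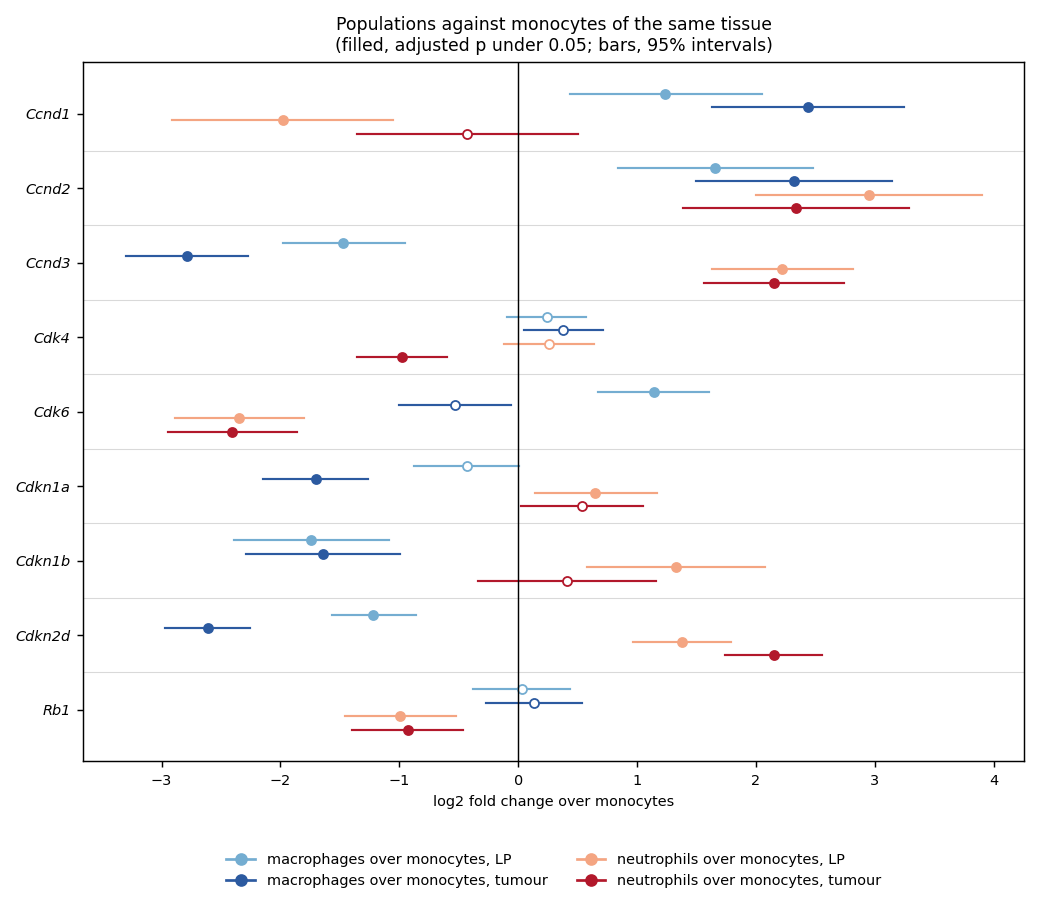
Log2 fold change over monocytes of the same tissue (x axis) with its 95% interval for the 9 members tested, for the mean of both macrophage subsets and for neutrophils. Filled points passed an adjusted p of 0.05. Ccnd3 and Cdkn2d lie on opposite sides of 0 in macrophages and neutrophils.

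Of 35 other genes of G1/S control, 29 were tested between tumour and LP. In MHCIIhi macrophages 1 was higher and 0 were lower (median log2 0.30, 0 for all genes), in MHCIIlow macrophages 2 were higher and 0 lower (0.34, 0.06 for all genes), in monocytes 0 passed (-0.01, 0 for all genes) and in neutrophils 4 were higher and 4 lower (0.08, -0.12 for all genes). The shares of all genes that passed in these comparisons were 19.5%, 23.3%, 9.29% and 32.2%. Rbl2, the pocket protein p130 related to Rb1, rose in MHCIIhi (log2 1.49 ± 0.27, limma adjusted p = 0.000464) and MHCIIlow macrophages (log2 0.80 ± 0.27, adjusted p = 0.0349). E2f2, an activating E2F factor, rose in MHCIIlow macrophages (log2 2.59 ± 0.48, adjusted p = 0.000442). In neutrophils Tfdp1, the dimer partner of E2F, rose by 2.22 on the log2 scale (adjusted p = 3.47e-05), Cdk2 by 1.27 (adjusted p = 0.00195) and Ccndbp1, which binds D cyclins, by 0.96 (adjusted p = 0.000215). E2f4, a repressive E2F factor, fell by 1.37 in neutrophils (adjusted p = 0.000243).

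Of 27 E2F targets of S phase, 24 were tested. In MHCIIhi macrophages 4 were higher and 1 lower (median log2 0.93, 0 for all genes), which is near the 19.5% of all genes that passed there. In MHCIIlow macrophages 8 were higher and 1 lower (1.21, 0.06 for all genes), beside 23.3% of all genes. In monocytes 0 were higher and 3 lower (-0.34, 0 for all genes), beside 9.29%, and in neutrophils 1 was higher and 6 lower (-0.46, -0.12 for all genes), beside 32.2%. Ccna2, cyclin A of S phase, rose in MHCIIhi (log2 3.58 ± 1.06, limma adjusted p = 0.0215) and MHCIIlow macrophages (log2 3.29 ± 1.06, adjusted p = 0.0296). Lig1, the replicative DNA ligase, rose in MHCIIlow macrophages (log2 3.38 ± 0.62, adjusted p = 0.000443), as did Rrm1, a subunit of ribonucleotide reductase (log2 2.36 ± 0.42, adjusted p = 0.000358). Pcna, the sliding clamp of replication, fell in all 4 populations, by 0.49 (adjusted p = 0.0285), 0.70 (adjusted p = 0.00191), 0.74 (adjusted p = 0.00407) and 1.26 (adjusted p = 4.72e-06) on the log2 scale. Cdt1, which licenses replication origins, fell in monocytes (log2 -1.09 ± 0.28, adjusted p = 0.0159) and neutrophils (log2 -3.15 ± 0.28, adjusted p = 1.42e-07). In each of these 2 cell types 3 of 6 B and plasma cell markers tested fell and 0 rose. Their part in the falls of Cdt1 and Pcna was not tested.

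Of 20 p53 targets other than Cdkn1a, 17 were tested. The counts higher and lower in tumours were 2 and 3 in MHCIIhi macrophages, 2 and 2 in MHCIIlow macrophages, 1 and 1 in monocytes and 1 and 3 in neutrophils. The shares of all genes that passed were 19.5%, 23.3%, 9.29% and 32.2%, and the counts in MHCIIlow macrophages and monocytes are near them. Its median log2 fold changes were 0.04, 0.17, -0.28 and 0.29, and those of all genes 0, 0.06, 0 and -0.12. Btg2, an antiproliferative gene, rose in all 4 populations, by log2 2.23 (limma adjusted p = 2.54e-05), 1.42 (adjusted p = 0.00184), 1.23 (adjusted p = 0.0139) and 1.35 (adjusted p = 0.00214). Mdm2, the ubiquitin ligase of p53, fell in MHCIIhi (log2 -1.42 ± 0.19, adjusted p = 1.6e-05) and MHCIIlow macrophages (log2 -1.85 ± 0.19, adjusted p = 5.33e-07). The death receptor gene Fas fell in both too (log2 -2.86 ± 0.31, adjusted p = 1.32e-06 and -2.70 ± 0.31, adjusted p = 2.06e-06), while Pmaip1, which encodes Noxa, rose (log2 1.17 ± 0.24, adjusted p = 0.00168 and 1.13 ± 0.24, adjusted p = 0.00179).

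**Figure D5:**
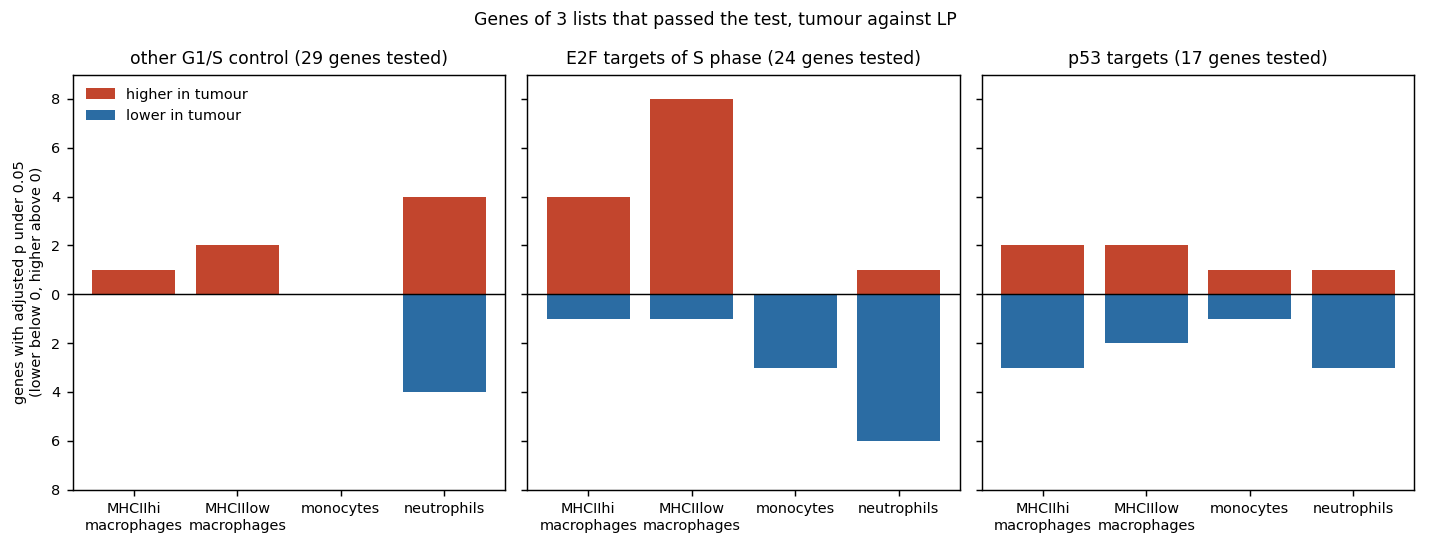
Number of genes of 3 lists past an adjusted p of 0.05 between tumour and LP (y axis, higher in tumour above 0 and lower below 0), by population (x axis). Of 24 E2F targets of S phase, 5 and 9 passed in MHCIIhi and MHCIIlow macrophages and 3 and 7 in monocytes and neutrophils, where 19.5%, 23.3%, 9.29% and 32.2% of all genes passed.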

How the data were processed

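Total RNA of sorted myeloid cells was amplified by a variant of SMARTSeq v2, which does not mark strand, before paired-end sequencing. Per the submitters' notes, the genome was GRCm38/mm10, STAR 2.3 was the aligner and featureCounts 1.5 the counter. The GENCODE release is not given in the sources used here. Genes with few reads were left out, and the authors deposited log2 RPKM, whose values carry a prior of 0.25 reads. Whole reads were recovered from 100% of the 415224 deposited log2 values (within 0.01 reads), and served for depth, for counts of reads and for the voom alternative.

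Groups followed the labels. Deposited log2 RPKM were fitted with limma 3.58.1 under R 4.3.3 (moderated variances with a trend) on 8 group means, over the 12878 genes with a mean of at least 1 RPKM in at least 1 group, for 12 comparisons. Adjustment followed Benjamini and Hochberg over all genes of a comparison, and the threshold was 0.05. Of 17301 identifiers, 17190 matched a symbol in GENCODE M21. Tables and figures were made with python 3.11.15, pandas 2.3.3 and matplotlib 3.10.9, and the fit was tested on simulated data.

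Members and gene lists were chosen with earlier results of these data known. All members are named. Of the other lists, the 3 largest rises and falls among the genes that passed, with non-overlapping groups and at least 2 RPKM in the higher group, could be named in comparisons of tumour with LP, and for each member the 2 genes with the highest Pearson correlation. Lpar6, LTO1, Rcbtb2 and Tspan31 were named for their overlap with members. The labels call the library number a donor, so the number pairs libraries of the same tissue. Deviations from the group means correlated at -0.0661 to 0.255 (median 0.0169) over 29 such pairs, and 0 pairs of libraries were identical. Alternatives were log2(RPKM + 1), no filter, a mean of at least 5 RPKM, quantile normalization, centring on the median, only the libraries compared, voom on recovered reads, the donor number as a block and leaving out each library. A further alternative, added after seeing the data, took summed reads as library sizes.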

Additional observations from a re-analysis of the deposited data

Results flagged for a closer look

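Of the 9 members tested, 2 showed a tumour effect that differed between populations in a test of the difference itself, 1 in each of 2 tests. Of all genes, 1.46% passed the test between macrophage subsets and 9.11% that between neutrophils and monocytes. In the latter, 1 of 9 members is near the share of all genes. Cdkn2d was at -1.15 ± 0.28 (log2, limma adjusted p = 0.0445) for the tumour effect in MHCIIlow minus that in MHCIIhi macrophages. Its level was lower in all 3 tumour than in all 3 LP libraries of MHCIIlow macrophages, and the groups overlapped in MHCIIhi macrophages. Over its 21 alternatives the value lay between -1.35 and -1.04 and the adjusted p between 0.0137 and 0.138, and 8 of the 21 kept the call. Cdk4 was at -1.24 ± 0.26 (log2, limma adjusted p = 0.00499) for the tumour effect in neutrophils minus that in monocytes. It was lower in all 3 tumour libraries of neutrophils and higher in all 3 tumour libraries of monocytes than in LP. Over its 21 alternatives the value lay between -1.55 and -0.98 and the adjusted p between 0.000685 and 0.0317, and all 21 kept the call. Tspan31, which lies under 19.7% of the exon bases of Cdk4 on the opposite strand, was at -1.21 (adjusted p = 0.0071) in the same test, and its part was not tested. Nor was that of B and plasma cell markers, which summed to 372 to 1330 RPKM in LP and 14.3 to 35.3 RPKM in tumour neutrophils. In monocytes they summed to 527 to 944 RPKM in LP and 199 to 276 RPKM in tumours.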

How the results depend on the processing

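Of 43 pairs of a member and a comparison past the threshold, 34 were past it in the same direction under every alternative and 9 were not under at least 1, while 20 pairs passed under an alternative alone. The count of members past the threshold moved by over 1.5 times as follows. For tumour against LP it went from 3 to 5 with voom in MHCIIhi macrophages and from 3 to 5 with log2(RPKM + 1) and with voom in monocytes. For MHCIIlow against MHCIIhi macrophages in LP it went from 2 to 4 with quantile normalization and was 1 to 2 when 1 library was left out. For the tumour effect in MHCIIlow minus MHCIIhi macrophages it went from 1 to 0 with no filter, centring, only the libraries compared and voom, and was 0 to 1 when 1 library was left out. For the tumour effect in neutrophils minus monocytes it was 1 to 2 when 1 library was left out. Directions turned in comparisons of neutrophils with monocytes. In LP, Cdkn1a went from 0.65 to -0.55 (quantile) and -0.17 (summed reads), and Cdk4 from 0.26 to -0.57 (summed reads). In tumours, Cdkn1a went from 0.54 to -0.89 (quantile) and -0.59 (summed reads), Cdkn1b from 0.41 to -0.72 (summed reads), and Ccnd1 from -0.43 to 0 (quantile), 0.02 (centred), -1.57 (summed reads, adjusted p = 0.00674), and between -0.9 and 0.11 when 1 library was left out, with 0.05 and 0.11 without tumour monocyte or tumour neutrophil donor II. The cause was not tested. The donor number as a replicate block changed 1 call among these pairs, that of Cdk6 between LP macrophage subsets (0.84, adjusted p = 0.0464), and the count there went from 2 to 3. Depth limited Cdkn2c, with 0 to 143 reads a library.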
